A study of Mus musculus with 19 samples.

Results

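The genes examined here were 10 classical targets of glucocorticoids, *Fkbp5*, *Tsc22d3*, *Zbtb16*, *Sgk1*, *Klf9*, *Mt1*, *Mt2*, *Errfi1*, *Cdkn1a* and *Lcn2*, chosen by name. They were chosen with earlier results of these data known. Counts and medians over them, set beside those of all genes, therefore describe the set and do not test it. All 10 were found among the 20408 genes measured, and all 10 passed the filter on low values that left 14845 genes to test. Bulk RNA-Seq was done on suprarenal abdominal aortas (SRAs) of 19 male mice at 24 h of infusion. There were 5 saline-infused and 5 Ang II-treated IKKβ+/+ mice, and 4 saline-infused and 5 Ang II-treated IKKβ-/- mice. The labels give 500 to 1000 ng/min/kg of angiotensin II (Ang II) by osmotic pump, while the study's methods name only the upper dose for these libraries. The mice ate regular chow and were 8 weeks old per the labels. In the study's methods, 8 weeks is the age at the start of the tamoxifen injections, which came before the pumps, so the mice were older when sampled.

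All 4 groups lacked *ApoE*, carried the tamoxifen-inducible Cre SMA-CreERT2, and received tamoxifen, pump surgery under isoflurane and the analgesic carprofen. IKKβ-/- mice also carried the floxed *Ikbkb* gene, whose product is a kinase that activates NF-κB. The Cre is driven by the *Acta2* promoter, so endothelial, adventitial and blood cells of the same vessel keep the gene.

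Glucocorticoids, corticosterone in mice, are adrenal hormones released with a daily rhythm and under stress. They bind the glucocorticoid receptor, encoded by *Nr3c1*, which moves to the nucleus and activates genes through a DNA motif called the glucocorticoid response element (GRE). Most of the 10 genes also answer to other signals: metallothioneins to metals, *Cdkn1a* to p53, *Lcn2* to NF-κB, and *Sgk1* and *Errfi1* to growth factors. Their RNA is therefore not a measure of the hormone, and corticosterone was not analysed here.

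In IKKβ+/+ mice, 7 of the 10 genes rose with Ang II and none fell, where 4.33% of all genes tested were called higher, 4.33% lower and 8.66% either way. In IKKβ-/- mice, 2 of the 10 rose, *Mt2* and *Lcn2*, where 2.59% of all genes were called higher, 2.69% lower and 5.29% either way. A call needs a limma p-value adjusted over all 14845 genes below 0.1 and a fold change above 1.2. The median log2 fold change of the 10 genes was 1.05 in IKKβ+/+ mice and 0.25 in IKKβ-/- mice, where the medians of all genes tested were 0.0056 and -0.0029. Each genotype had its own saline group, so the means compared share no mouse, whereas the comparisons between genotypes reuse the same 19 mice. All comparisons take their spread from 1 fit over the 19 mice, so the calls of the 2 genotypes are not independent. The values of treated and saline-infused IKKβ+/+ mice did not overlap for 4 of the 10 genes, *Mt2*, *Errfi1*, *Cdkn1a* and *Lcn2*, all higher with Ang II. Among all genes, 3.95% were higher without overlap, 4.47% lower and 8.42% either way. The IKKβ-/- groups did not overlap for *Mt2* and *Lcn2*, higher with Ang II, and for *Klf9*, lower, where 2.41% of all genes were higher, 2.88% lower and 5.29% either way.

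The values below are normalized counts, that is, reads divided by a size factor for each mouse. The reads on genes numbered 11382573 in the shallowest library and 19906694 in the deepest. *Ikbkb* was 699.7 ± 66.8 (SD, n = 10) in IKKβ+/+ and 533.3 ± 78.9 (SD, n = 9) in IKKβ-/- mice, which is 23.8% lower (p = 0.000173, exact permutation test, two-sided). The lowest IKKβ+/+ mouse exceeded 8 of the 9 IKKβ-/- mice. The summed level of 7 smooth muscle markers was 302900 to 636800 per mouse. It also shifted in the comparison in which 7 of the 10 genes rose. Its range was 324100 to 435800 in saline-infused and 453100 to 636800 in Ang II-treated IKKβ+/+ mice, without overlap. Of the 7 markers, 3 were called higher there, *Tagln*, *Cnn1* and *Des*, and none was called in IKKβ-/- mice. In the same IKKβ+/+ comparison, 6 fibroblast, 6 endothelial and 6 macrophage markers had median log2 fold changes of -0.56, -0.57 and -0.38. All of them but 2 endothelial markers lay below 0, and only the fibroblast gene *Lum* was called. The part of these shifts in the values of the 10 genes was not tested. The summed level of 6 white adipocyte markers ranged from 169.3 to 646.8 in saline-infused and from 1266 to 25380 in Ang II-treated IKKβ-/- mice, and 5 of the 5 tested rose there. The summed level of 4 adrenal medulla markers was 2760 in mouse X2356 and 354.5 in mouse X2350, both Ang II-treated IKKβ+/+ mice. It was at most 36.6 in every other mouse, and its part in the values of the 10 genes was not tested. In bulk tissue, fewer cells of a type and less RNA per cell cannot be told apart.

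**Figure D1:**
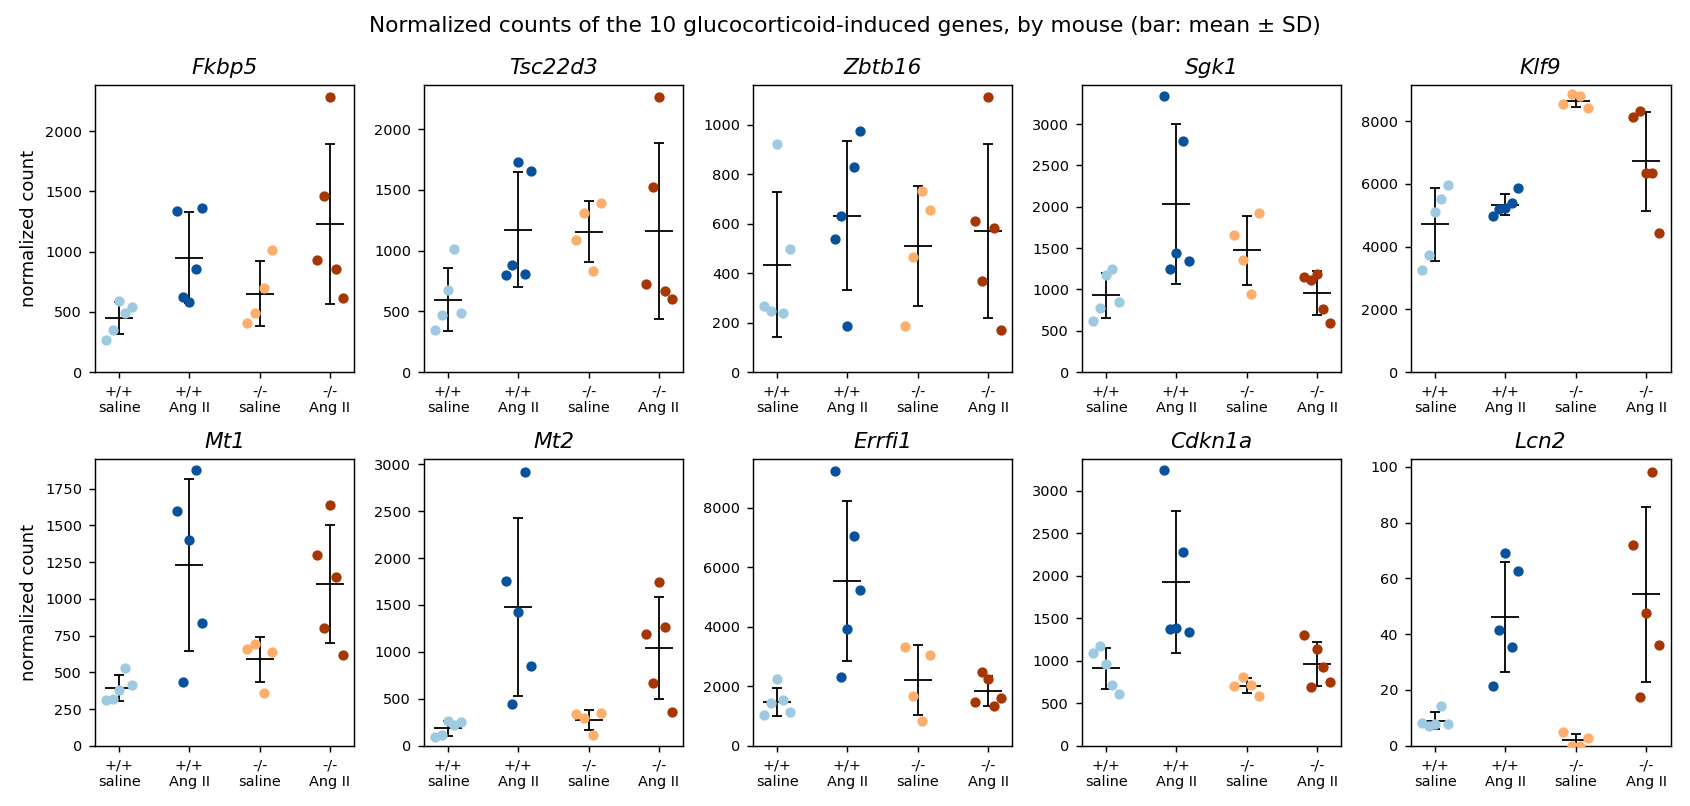
Normalized counts of the 10 genes (vertical axes, starting at 0) in each of the 19 mice, by genotype and infusion; points are mice, and the black bars give the mean ± SD of 4 or 5 mice. *Mt2* and *Lcn2* separate Ang II-treated from saline-infused mice in both genotypes, while *Sgk1*, *Errfi1* and *Cdkn1a* reach their highest values in Ang II-treated IKKβ+/+ mice.

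Per kilobase of exon, the 10 genes covered a wide range in saline-infused IKKβ+/+ mice. *Klf9* was the highest, at 978.8 ± 243.5 normalized counts per kilobase (SD, n = 5), and *Lcn2* the lowest, at 3.45 ± 1.11. Between them came *Errfi1* at 414.2 ± 131.4, *Mt2* at 318.4 ± 132.6, *Mt1* at 313.7 ± 71.3 and *Cdkn1a* at 256.5 ± 68.3, neighbours that did not differ beyond their spread. *Sgk1* at 189.6 ± 55.1, *Tsc22d3* at 137.2 ± 60.0, *Zbtb16* at 82.2 ± 55.5 and *Fkbp5* at 47.4 ± 14.2 followed, each within the spread of its neighbour. In Ang II-treated IKKβ+/+ mice the first place on this scale went to *Mt2*, at 2512 ± 1618, followed by *Errfi1* at 1549 ± 750.7, which did not differ beyond their spread. The exon length merges all annotated transcripts of a gene. For *Mt1* it was 1.246 kilobases, the whole gene from start to end, and for *Mt2* 0.588 kilobases, only part of the gene. *Mt1* may thus be understated, and the places of these 2 genes depend on the lengths used.

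*Fkbp5* (chr17:28399094-28517527, minus strand; GRCm38, GENCODE M21) encodes a co-chaperone that binds the receptor complex and lowers its affinity for the hormone. Its normalized counts were 269.5, 349.3, 588.6, 493.7 and 540.4 in saline-infused and 1336, 621.2, 581.4, 856.1 and 1359 in Ang II-treated IKKβ+/+ mice. The IKKβ-/- values were 408.2, 486.7, 695.4 and 1012 with saline and 929.7, 1461, 2283, 852.6 and 615.7 with Ang II. In IKKβ+/+ mice 4 of 5 treated animals exceeded every saline-infused one, and in IKKβ-/- mice 2 of 5 did. *Fkbp5* rose in IKKβ+/+ mice by a log2 fold change of 1.05 ± 0.34 (SE, limma adjusted p = 0.0795). The call was lost without any 1 of mice X2350, X2358, X2359, X2370, X2372, X2376 and X2378, at adjusted p of 0.112 to 0.22. The IKKβ-/- log2 fold change was 0.85 ± 0.36 (adjusted p = 0.217), and the effects of the 2 genotypes differed by -0.20, with a 95% confidence interval from -1.22 to 0.82.

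*Tsc22d3* (chrX:140539528-140600659, minus strand), also called GILZ, encodes a leucine zipper protein that restrains AP-1 and NF-κB. It ranged from 344.7 to 1012 in saline-infused and from 801.2 to 1729 in Ang II-treated IKKβ+/+ mice, with 2 of 5 treated mice above all controls. Its log2 fold change of 0.99 ± 0.35 missed the threshold there (adjusted p = 0.109). With array quality weights, with only those 2 groups in the fit, or without mouse X2376 it passed, at adjusted p = 0.056, 0.0708 and 0.078. For IKKβ-/- mice it ranged from 834.1 to 1391 with saline and from 601.5 to 2267 with Ang II (log2 fold change -0.18 ± 0.37, adjusted p = 0.853). Saline-infused IKKβ-/- and Ang II-treated IKKβ+/+ mice had like means of 1155 ± 249.4 (SD, n = 4) and 1173 ± 473.8 (SD, n = 5).

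*Zbtb16* (chr9:48654297-48836222, minus strand) encodes PLZF, a zinc finger repressor that rises strongly with glucocorticoids in many tissues. It varied as much within as between groups, from 238.3 to 922.5 in saline-infused and from 187.6 to 976.1 in treated IKKβ+/+ mice, and from 187.2 to 733.2 and from 170.9 to 1113 in the corresponding IKKβ-/- mice. The log2 fold changes were 0.57 ± 0.51 (adjusted p = 0.57) and 0.08 ± 0.54 (adjusted p = 0.959). The first interval runs from -0.50 to 1.63, and includes changes of either sign.

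*Klf9* (chr19:23141226-23168134, plus strand) encodes a Krüppel-like transcription factor that follows glucocorticoids and the circadian clock. Its normalized counts were 3256, 3719, 5098, 5518 and 5974 in saline-infused and 4965, 5201, 5246, 5385 and 5861 in Ang II-treated IKKβ+/+ mice. Its IKKβ-/- values were 8552, 8877, 8799 and 8411 with saline and 8139, 8312, 6359, 6336 and 4431 with Ang II. All 4 saline-infused IKKβ-/- mice lay above every other mouse of the series, with a coefficient of variation of 2.5%. The genotype difference with saline was called, at a log2 fold change of 0.92 ± 0.18 (adjusted p = 0.0367), and was lost without mouse X2406 (0.91, adjusted p = 0.112). Ang II gave 0.21 ± 0.17 in IKKβ+/+ mice (adjusted p = 0.5) and -0.40 ± 0.18 in IKKβ-/- mice (adjusted p = 0.236), where the groups did not overlap, as for 2.88% of all genes in that direction.

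Clock genes moved with the same saline comparison. Of 15 tested, 8 were higher and 3 lower in IKKβ-/- than in IKKβ+/+ mice with saline, and 3 were higher and 7 lower with Ang II against saline in IKKβ-/- mice. Among all genes, 3.4% were higher and 2.07% lower in the former comparison, and 2.59% and 2.69% in the latter. *Arntl*, the clock activator BMAL1, averaged 56.2 in saline-infused IKKβ-/- mice and 390.8 to 709.8 in the other groups, and *Dbp*, an output gene in opposite phase, averaged 4044 against 290.5 to 1315. The time of day at which the mice were taken is not given in the sources used here. Its part in the values of *Klf9* and of the other members was not tested. The same holds for every comparison that uses the saline-infused IKKβ-/- mice, the difference of the effects included.

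*Sgk1* (chr10:21882184-21999903, plus strand) encodes a kinase that acts on ion channels and FOXO factors and answers to both glucocorticoids and mineralocorticoids. The RefSeq table (GRCm38.p6) lists 6 promoters for it. One of them, at chr10:21993640-21993889 on the plus strand and inside the gene as GENCODE annotates it, holds a match to the GRE, searched on both strands as GNACA and TGTNC with 3 bases between. It is shown because *Sgk1* was among the genes that rose, with the match in capitals, from 188 to 176 bases before the start:
Sgk1 promoter: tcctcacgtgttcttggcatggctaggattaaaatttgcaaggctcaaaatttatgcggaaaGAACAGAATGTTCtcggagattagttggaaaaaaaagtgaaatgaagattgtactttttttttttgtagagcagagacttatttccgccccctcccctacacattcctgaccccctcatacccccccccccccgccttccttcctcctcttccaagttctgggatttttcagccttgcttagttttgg

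*Sgk1* measured 611.6, 774.9, 1170, 1249 and 842.4 in saline-infused and 3336, 1241, 1435, 2794 and 1339 in Ang II-treated IKKβ+/+ mice. The IKKβ-/- mice had 1652, 1354, 949.4 and 1927 with saline and 1147, 1116, 1180, 762.7 and 593.8 with Ang II. The group means lay in opposite order, with 4 of 5 treated IKKβ+/+ mice above all their controls and 2 of 5 treated IKKβ-/- mice below all of theirs. *Sgk1* rose in IKKβ+/+ mice by 1.05 ± 0.28 on the log2 scale (adjusted p = 0.0426). The call was lost without mouse X2350, X2358 or X2370, at adjusted p of 0.134, 0.132 and 0.1. The IKKβ-/- log2 fold change of *Sgk1* was -0.62 ± 0.30 (adjusted p = 0.292).

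*Errfi1* (chr4:150853919-150868892, plus strand) encodes MIG6, an inhibitor of the EGF receptor. Its normalized counts were 1047, 1447, 2237, 1551 and 1136 in saline-infused and 9230, 2326, 3917, 7039 and 5229 in Ang II-treated IKKβ+/+ mice, without overlap. With saline the IKKβ-/- mice had 3326, 1665, 843.1 and 3057, and with Ang II 1478, 2495, 2253, 1342 and 1604, fully within the range of their controls. *Errfi1* rose 3.49-fold in IKKβ+/+ mice (log2 fold change 1.80 ± 0.36, adjusted p = 0.0102) and was at -0.13 ± 0.38 in IKKβ-/- mice (adjusted p = 0.906). Of the 8 EGF receptor ligands and receptors tested, 1 rose in IKKβ+/+ mice, the ligand *Hbegf* (1.01 ± 0.34, adjusted p = 0.0965), and none was called in IKKβ-/- mice. The shares of all genes were 4.33% called higher in the former and 5.29% called either way in the latter.

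*Cdkn1a* (chr17:29090976-29100727, plus strand) encodes p21, which inhibits cyclin-dependent kinases. It measured 1096, 1177, 957.8, 717.8 and 608.9 in saline-infused and 3243, 1374, 1385, 2282 and 1341 in Ang II-treated IKKβ+/+ mice, again without overlap. With saline the IKKβ-/- mice had 706.5, 804.9, 717.0 and 590.0, and with Ang II 1300, 693.7, 1133, 926.5 and 751.9, so that 3 of 5 treated mice exceeded all controls. *Cdkn1a* rose in IKKβ+/+ mice (log2 fold change 1.03 ± 0.24, adjusted p = 0.0204) and was at 0.42 ± 0.25 in IKKβ-/- mice (adjusted p = 0.415). None of 12 other p53 targets was called in IKKβ+/+ mice (median log2 fold change 0.06), and 1 fell in IKKβ-/- mice, *Btg2* (-2.14 ± 0.37, adjusted p = 0.00565). The shares of all genes were 8.66% called either way in the former and 2.69% called lower in the latter. None of the 5 other CDK inhibitor genes tested was called in any comparison.

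*Mt1* and *Mt2* lie close together on chromosome 8 and encode metallothioneins, small cysteine-rich proteins that bind zinc and copper. They are induced by metals through metal response elements (MREs) and by glucocorticoids. The 250 bases before each RefSeq start are shown because both genes were called higher in treated IKKβ+/+ mice, with matches to the GRE and to the MRE (TGCACNC or TGCGCNC, both strands) in capitals. *Mt1* (chr8:94178839-94179088, plus strand, GRCm38.p6) holds a GRE match from 94 to 82 bases before the start and then 1 MRE match, and *Mt2* (chr8:94172368-94172617, plus strand) holds 3 MRE matches:
Mt1 promoter: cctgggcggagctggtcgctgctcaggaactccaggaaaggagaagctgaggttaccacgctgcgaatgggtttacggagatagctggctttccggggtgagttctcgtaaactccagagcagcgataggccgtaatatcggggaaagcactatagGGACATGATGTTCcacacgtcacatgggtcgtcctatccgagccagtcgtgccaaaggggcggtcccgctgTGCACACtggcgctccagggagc
Mt2 promoter: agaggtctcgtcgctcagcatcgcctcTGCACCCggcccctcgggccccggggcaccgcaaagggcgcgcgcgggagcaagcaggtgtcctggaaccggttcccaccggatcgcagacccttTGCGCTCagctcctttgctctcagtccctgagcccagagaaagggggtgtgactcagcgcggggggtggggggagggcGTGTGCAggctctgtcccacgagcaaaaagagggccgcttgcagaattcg

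The search ran over 300 bases, 250 before and 50 after each start, and the last 50 bases added 2 MRE matches for *Mt1* and 1 for *Mt2*. Of all 32851 promoters of that length, 0.475% held a GRE match, 25.7% held an MRE match and 1.97% held at least 3 MRE matches. Of the 10 genes, 9 had a promoter in the table, 18 promoters in all, and *Zbtb16* had none. Only the *Sgk1* and the *Mt1* promoter shown above held a GRE match, and no other member promoter did. The shares are per promoter, while *Sgk1* had 6 promoters searched. The half-site AGAACA had 6 matches in promoters of *Tsc22d3* and *Sgk1* (19% of all promoters held one), 2 of them overlapping the GRE match of *Sgk1*, and another *Sgk1* promoter held 1 MRE match after its start. The E-box CACGTG lay in promoters of *Fkbp5* and *Sgk1* (7.15% of all), the cAMP response element TGACGTCA in one of *Errfi1* (1.79%), and no member promoter matched the NF-κB motif (4.51%). GENCODE places the starts of *Mt1* and *Mt2* at other bases than RefSeq does. A match describes letters in this window and not a bound site.

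*Mt1* measured 308.8, 320.8, 381.5, 529.8 and 413.7 in saline-infused and 1595, 434.4, 1402, 1875 and 838.9 in Ang II-treated IKKβ+/+ mice. *Mt2* measured 91.8, 116.7, 260.8, 216.5 and 250.3 in the same saline-infused and 1755, 441.9, 1423, 2917 and 847.9 in the same treated mice. Mouse X2352 was the lowest and mouse X2358 the highest of the treated group for both genes. *Mt1* rose 2.84-fold (log2 fold change 1.503 ± 0.33, adjusted p = 0.0153) and *Mt2* 7.06-fold (2.82 ± 0.48, adjusted p = 0.00407). Both calls held when any 1 of the 10 mice was left out, with adjusted p up to 0.0581 and 0.0184.

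In IKKβ-/- mice, *Mt1* measured 661.1, 693.2, 358.5 and 639.3 with saline and 1296, 804.0, 1641, 1146 and 618.2 with Ang II. *Mt2* measured 335.9, 295.0, 118.9 and 346.1 with saline and 1186, 668.3, 1745, 1262 and 356.0 with Ang II. All 5 treated mice exceeded every control for *Mt2*, though mouse X2386 did so by little, and 4 of 5 did for *Mt1*. *Mt2* rose 3.59-fold (log2 fold change 1.84 ± 0.50, adjusted p = 0.053), a call lost without mouse X2384, X2385 or X2406 (adjusted p = 0.131, 0.115 and 0.179). *Mt1* was at 0.87 ± 0.35 (adjusted p = 0.199), which DESeq2 called (0.90, adjusted p = 0.0851), as it did 7.85% of all genes. The genotypes' effects on *Mt2* differed by -0.98, with a 95% confidence interval from -2.42 to 0.47.

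**Figure D2:**
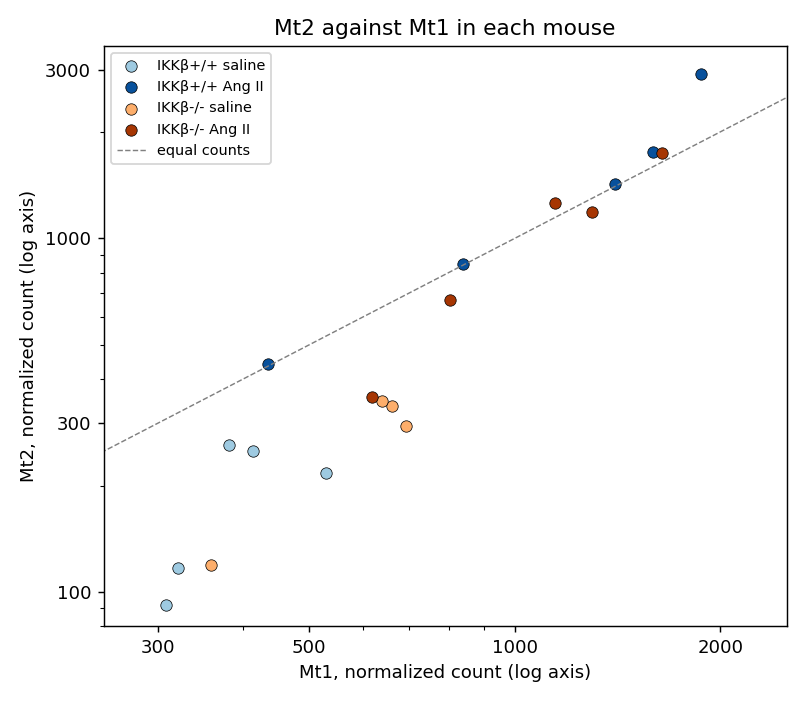
Normalized count of *Mt2* (vertical) against *Mt1* (horizontal), both on log axes, in each of the 19 mice, with a dashed line at equal counts. Saline-infused mice of both genotypes lie well below the line, at *Mt2* to *Mt1* ratios of 0.297 to 0.684, and Ang II-treated IKKβ+/+ mice lie on or above it, at 1.01 to 1.56.

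The balance of the 2 metallothionein genes is given as a description. The ratio of *Mt2* to *Mt1* was 0.472 ± 0.165 (SD, n = 5) in saline-infused and 1.14 ± 0.24 (SD, n = 5) in Ang II-treated IKKβ+/+ mice, and 0.452 ± 0.0937 (SD, n = 4) and 0.897 ± 0.21 (SD, n = 5) in IKKβ-/- mice. No treated mouse overlapped its controls, the closest values being 0.541 and 0.576 in IKKβ-/- mice. The ratio was formed after the values were seen and was not tested. The coding sequences of the 2 genes are alike, and how reads shared by them were treated is not given in the sources used here. Of the other metal-response genes tested, the zinc importer *Slc39a14* rose in IKKβ+/+ mice (0.80 ± 0.23, adjusted p = 0.0551) and the zinc exporter *Slc30a1* fell (-0.56 ± 0.18, adjusted p = 0.0847).

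*Lcn2* (chr2:32384633-32388252, minus strand) encodes lipocalin 2, a secreted protein that binds iron-loaded siderophores and is made by neutrophils, adipocytes and stressed epithelium. Its counts were low: 7.99, 7.14, 7.93, 14.2 and 7.97 in saline-infused and 21.4, 41.6, 69.1, 35.4 and 62.6 in Ang II-treated IKKβ+/+ mice. The IKKβ-/- values were 4.83, 0, 0 and 2.90 with saline, 9 reads in all, and 72.1, 17.5, 47.5, 98.0 and 36.0 with Ang II, 234 reads in all. At the depth of the 2 mice at 0, a count of 0 allows up to 3.16 and 5.405 normalized counts (3 reads each, counting error only). The groups did not overlap in either genotype, and all 4 saline-infused IKKβ-/- mice lay below the 5 saline-infused IKKβ+/+ mice. *Lcn2* rose in IKKβ+/+ mice by a log2 fold change of 2.15 ± 0.52 (adjusted p = 0.0258). The IKKβ-/- rise was 4.44 ± 0.55 (adjusted p = 0.000553), on a scale that depends on the pseudocount, since a pseudocount of 4 gave 3.19.

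Markers of 2 cell types that make *Lcn2* were set beside it. In Ang II-treated IKKβ-/- mice X2380, X2383, X2384, X2385 and X2386 the summed white adipocyte level was 3104, 1266, 20950, 25380 and 4614. Mouse X2385 was highest and mouse X2383 lowest in both this level and *Lcn2*, while mouse X2380 had the second-highest *Lcn2* and the second-lowest adipocyte level. In IKKβ+/+ mice the adipocyte level was 185.0 to 8080 with saline and 949.7 to 5046 with Ang II. These ranges overlapped, while those of *Lcn2* did not. Saline-infused IKKβ+/+ mouse X2370 had the level of 8080 and an *Lcn2* count of 7.99. None of the 4 neutrophil markers tested was called in either genotype, and the sum of 7 such markers ranged from 22.5 to 737.5, with mouse X2380 the highest. The *Lcn2* increase in IKKβ-/- mice was 4.07 to 4.91 when each of the 9 mice was left out in turn. The part of either cell type in it was not tested. Of 9 other acute-phase and NF-κB-linked genes tested, 1 was called with Ang II, *Lrg1*, which rose in IKKβ-/- mice (2.21 ± 0.64, adjusted p = 0.0675). The share of all genes called higher in that comparison was 2.59%.

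**Figure D3:**
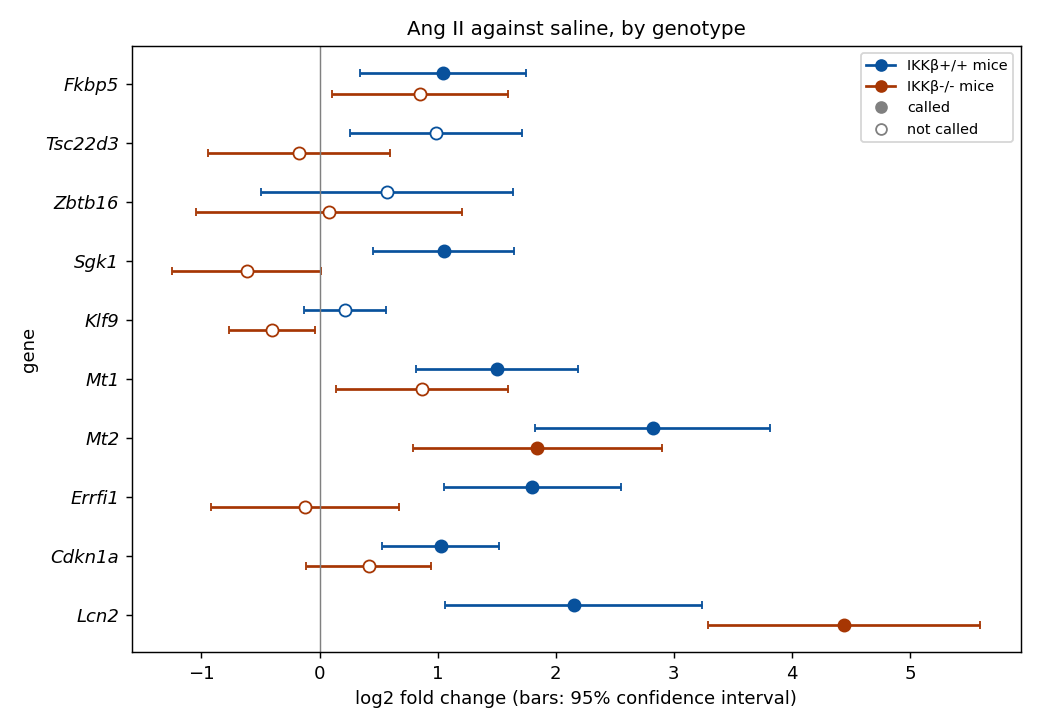
Log2 fold change of Ang II against saline (horizontal) for each of the 10 genes in IKKβ+/+ and IKKβ-/- mice; bars are 95% confidence intervals from limma, filled points are called and open points are not. In IKKβ+/+ mice all 10 points lie above 0 and 7 are filled, and in IKKβ-/- mice *Mt2* and *Lcn2* are filled.

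Whether IKKβ changed the response was asked of the difference between the 2 effects. No gene of the 14845, and so 0 of the 10 and a background of 0%, passed the limma threshold for it. At an unadjusted limma p under 0.05, 5 of the 10 genes passed, against 11.1% of all genes. For 9 of the 10 genes the effect was lower in IKKβ-/- mice, with a median difference of -0.63, against -0.0017 for all genes. The difference of the effects equals the genotype difference with Ang II minus that with saline. Over the 10 genes these had medians of -0.17 and 0.53, so it reflects the saline groups as well as the treated ones. The edgeR quasi-likelihood test called 0 of the 10, where it called 0.0202% of all genes, and DESeq2 called 2, *Sgk1* and *Errfi1*, where it called 1.88% of all genes.

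The difference was -1.67 ± 0.41 for *Sgk1* (limma adjusted p = 0.232) and -1.93 ± 0.52 for *Errfi1* (adjusted p = 0.242). Limma called *Errfi1* without mouse X2406 (-2.33, adjusted p = 0.0833) and *Sgk1* with array quality weights (-1.68, adjusted p = 0.0988). DESeq2 gave -1.74 for *Sgk1* (adjusted p = 0.0125) and -2.18 for *Errfi1* (adjusted p = 0.00704). In both genes a higher mean with Ang II in IKKβ+/+ mice met a lower or equal mean in IKKβ-/- mice. *Lcn2* was the exception in sign, at 2.29 ± 0.76 (adjusted p = 0.298), and its control group of IKKβ-/- mice stood at 9 reads. The remaining pair under an unadjusted p of 0.05 was *Tsc22d3*, at -1.16 ± 0.51 (adjusted p = 0.413), and *Klf9*, at -0.62 ± 0.24 (adjusted p = 0.368). For these 2 the genotypes differed more with saline (1.03 and 0.92) than with Ang II (-0.14 and 0.30), as they did for *Lcn2* (-2.16 and 0.13). *Sgk1* was at 0.66 with saline and -1.004 with Ang II, and *Errfi1* at 0.44 and -1.49.

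Immediate early genes, which turn on within minutes of stress or growth factors, were set beside these values. Of 10 tested, 7 fell with Ang II in IKKβ-/- mice and 1, *Fos*, fell in IKKβ+/+ mice. Among all genes, 2.69% and 4.33% were called lower in these comparisons. *Atf3* averaged 6475 ± 5298 (SD, n = 4) in saline-infused IKKβ-/- mice, a wide spread. Its means in the other groups were 244.7 to 1653, the highest with an SD of 1444. Their part in the values of *Sgk1* and *Errfi1* was not tested.

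**Figure D4:**
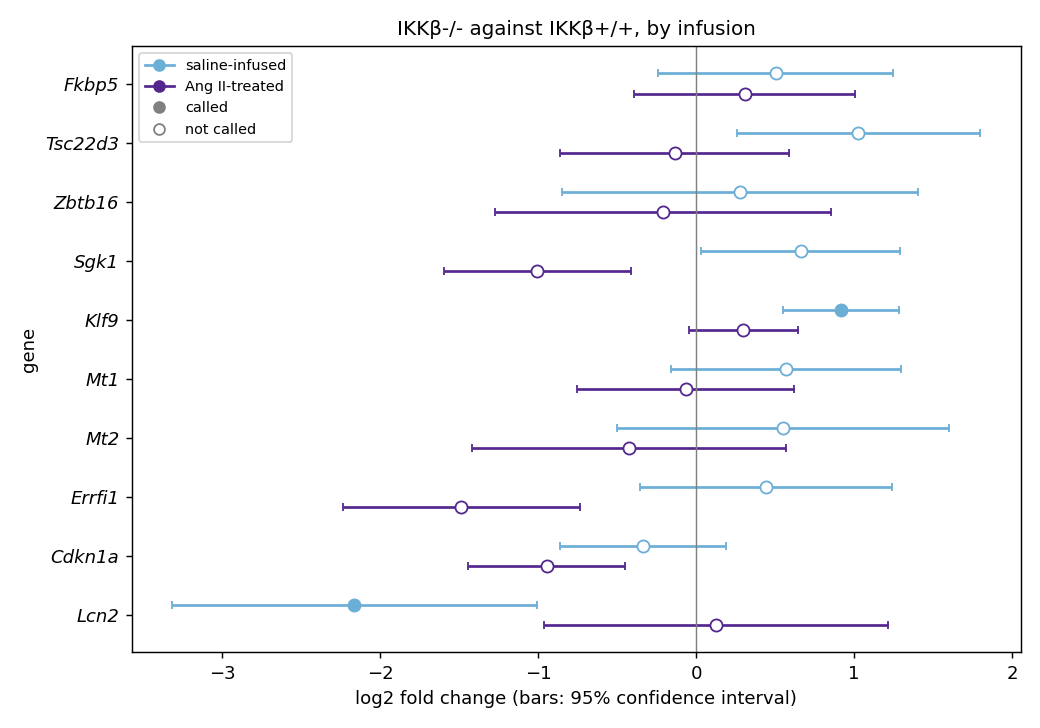
Log2 fold change of IKKβ-/- against IKKβ+/+ mice (horizontal) for each of the 10 genes, with saline and with Ang II; bars are 95% confidence intervals from limma, filled points are called and open points are not. With saline *Klf9* is filled above 0 and *Lcn2* below 0, and with Ang II no point is filled, *Sgk1*, *Errfi1* and *Cdkn1a* having intervals below 0.

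Between genotypes with saline, 1 of the 10 genes was higher, *Klf9*, and 1 lower, *Lcn2*, where 3.4% and 2.07% of all genes were called, 5.47% either way. The same 2 genes did not overlap between the genotypes, where 4.68% of all genes were higher, 4.08% lower and 8.76% either way. The *Lcn2* difference of -2.16 ± 0.55 (adjusted p = 0.0563) was lost with edgeR (adjusted p = 0.125), with a pseudocount of 4 (-1.20, adjusted p = 0.115) and without mouse X2370, X2373, X2376, X2403 or X2406 (adjusted p = 0.103 to 0.195). *Tsc22d3* was at 1.03 ± 0.37 (adjusted p = 0.135), and 3 of 4 IKKβ-/- mice exceeded the highest IKKβ+/+ value. It passed with only the saline groups in the fit (adjusted p = 0.0577). *Sgk1* was at 0.66 ± 0.30 (adjusted p = 0.232), and both genes passed with array quality weights (adjusted p = 0.0671 and 0.0668). The median over the 10 genes was 0.53 and that of all genes -0.02. Clock genes also differed in this comparison, and their part in these values was not tested. Of 6 macrophage markers, 2 were called lower in the same comparison as *Lcn2*, *Cd68* and *Adgre1*, with a median over the 6 of -0.73. Their summed level was 4414 to 6196 in saline-infused IKKβ+/+ and 2760 to 4078 in saline-infused IKKβ-/- mice, without overlap. The 5 white adipocyte markers tested had a median of -2.36 in this comparison and the 4 neutrophil markers -0.60, with none called. *Cp*, 1 of the 9 acute-phase and NF-κB-linked genes tested, was lower (-0.95 ± 0.20, limma adjusted p = 0.0367). The part of any of these in the *Lcn2* values was not tested. Without mouse X2406 the genes called in this comparison fell to 24 of all those tested.

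With Ang II, none of the 10 genes was called between genotypes by limma, where 0.0202% of all genes were higher, 0.108% lower and 0.128% either way. Yet 3 of the 10 had an unadjusted p under 0.05, against 14.3% of all genes, and 2, *Sgk1* and *Cdkn1a*, were lower in IKKβ-/- mice without overlap, as were 0.882% of all genes, with 0.653% higher and 1.54% either way. *Sgk1* reached 1180 at most in treated IKKβ-/- mice and 1241 at least in treated IKKβ+/+ mice (log2 fold change -1.004 ± 0.28, adjusted p = 0.174). *Cdkn1a* reached 1300 at most and 1341 at least (-0.95 ± 0.24, adjusted p = 0.153). *Errfi1* was at -1.49 ± 0.36 (adjusted p = 0.153), with 4 of 5 IKKβ-/- mice below every IKKβ+/+ mouse. DESeq2 called *Sgk1*, *Cdkn1a* and *Errfi1*, at adjusted p of 0.0231, 0.0126 and 0.00208, where it called 3.58% of all genes. Of the 10, edgeR called none, where it called 0.108% of all genes. Limma also called all 3 without mouse X2356, an IKKβ+/+ mouse with a summed adrenal medulla marker level of 2760, against 0 to 354.5 in the other 18 mice, whose part was not tested. It called *Errfi1* and *Cdkn1a* without mouse X2380 and *Errfi1* without mouse X2383.

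The receptor side was measured too. *Nr3c1* fell with Ang II in IKKβ+/+ mice, from 3957 ± 237.6 to 2813 ± 305.4 (SD, n = 5 each; log2 fold change -0.50 ± 0.10, adjusted p = 0.0122), without overlap. In IKKβ-/- mice it went from 3508 ± 188.9 (SD, n = 4) to 3059 ± 450.0 (SD, n = 5), which was not called (-0.21 ± 0.11, adjusted p = 0.325). *Nr3c2*, the mineralocorticoid receptor, fell in both genotypes, by 1.32 (adjusted p = 0.00835) and 0.86 (adjusted p = 0.0961) on the log2 scale.

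*Hsd11b1*, which regenerates active corticosterone inside cells, averaged 692.4 with saline and 758.5 with Ang II in IKKβ+/+ mice (adjusted p = 0.973), and 471.2 and 1004 in IKKβ-/- mice (adjusted p = 0.322). *H6pd*, which supplies its cofactor, rose in IKKβ-/- mice (0.81 ± 0.15, adjusted p = 0.00917). The co-chaperone *Fkbp4* was called in no comparison. Of 12 genes tested for the receptor and steroid handling, 2 fell in IKKβ+/+ mice, and 1 fell and 1 rose in IKKβ-/- mice. The shares of all genes called lower were 4.33% and 2.69% in these comparisons, and 2.59% were called higher in IKKβ-/- mice.

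A further list of 27 tested glucocorticoid-induced genes was set beside the 10. In IKKβ+/+ mice 6 rose and none fell, *Ddit4*, *Pdk4*, *Cebpd*, *Cebpb*, *Nfkbia* and *Map3k6*, with a median over the list of 0.12. Among all genes, 4.33% were called higher there and 4.33% lower. *Cebpd*, a transcription factor of the acute phase, showed the smallest adjusted p of them (1.17 ± 0.21, adjusted p = 0.00601). In IKKβ-/- mice none rose and 4 fell, *Per1*, *Dusp1*, *Zfp36* and *Irs2*, with a median of 0.05. Among all genes, 2.59% were called higher there and 2.69% lower. Between genotypes with saline, 3 of the 27 were higher in IKKβ-/- mice, *Per1*, *Cebpd* and *Irs2*, and none was lower. All genes were called higher at 3.4% and lower at 2.07% in that comparison. *Per1* and *Irs2* thus fell with Ang II from a higher saline level. *Per1*, a clock gene with a GRE-driven promoter, went from 422.3 to 586.1 in IKKβ+/+ mice and from 1188 to 465.0 in IKKβ-/- mice (-1.43 ± 0.35, adjusted p = 0.0308).

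Single mice ran high or low across several of the 10 genes. In saline-infused IKKβ+/+ mice, mouse X2370 was the lowest for 7 genes. In saline-infused IKKβ-/- mice, mouse X2406 was the lowest for 5. Among Ang II-treated IKKβ-/- mice, mouse X2384 was the highest for 6 genes and mouse X2386 the lowest for 7. No single mouse held more than 4 of the lowest or 3 of the highest values among treated IKKβ+/+ mice.

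The likeness of patterns was described by Pearson's r over the 19 mice, which mix 4 groups, so that r reflects the group differences too and carries no p. The most alike of all genes tested was *Mt2* for *Mt1* (r = 0.959), *Csrnp1* for *Sgk1* (r = 0.906), *Ube2j1* for *Errfi1* (r = 0.871) and *Fhl3* for *Cdkn1a* (r = 0.948). It was *Mpp6* for *Fkbp5* (r = 0.814), *Cebpd* for *Tsc22d3* (r = 0.79), *Piga* for *Zbtb16* (r = 0.736), the unnamed transcript 5330406M23Rik for *Klf9* (r = 0.866) and *Nr1h3* for *Lcn2* (r = 0.916). *Sgk1* and *Errfi1* stood 9th and 8th in each other's order (r = 0.85). *Fkbp5* and *Tsc22d3* were related less closely (r = 0.638), and *Fkbp5* was nearer to *Mt2* (r = 0.713).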

How the data were processed

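Single-end, stranded, poly(A)-selected libraries of the suprarenal aorta were sequenced. Per the labels and the study's methods, the authors used Trimmomatic 0.35 for trimming, STAR 2.7.1a for alignment and read counts (GRCm38, Gencode M25), and DESeq2 1.30.1 for normalization. The deposited signal values are these normalized counts. All values (100%) were whole multiples of 1 read within 0.01 read, and reads were recovered from them. For mouse X2359, 1 read is worth so nearly 1 that an independent check of its unit could not be made; its reads were kept, and the count tests were also run without it, an alternative chosen after seeing the data.

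A gene was tested where 4 or more mice had 10 or more normalized counts (5563 left out), on log2(value + 1), which understates changes of low genes, with limma 3.58.1 in R 4.3.3: 1 fit of 4 group means, trend and two-sided, Benjamini-Hochberg over all genes. Alternatives, among them edgeR 4.0.16 and DESeq2 1.42.0 on the recovered reads, are in the closing section. Scripts were tested on simulated data. The members and lists were chosen with earlier results of these data known. Genes named beside the 10 come from fixed lists or are the most alike by r. Exon lengths were from GENCODE M21 (GRCm38), and promoters from RefSeq. Replicates are separate mice, and no batch is given in the sources used here.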

Additional observations from a re-analysis of the deposited data

Results flagged for a closer look

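Of 40 groups of 4 or 5 mice checked, 10 genes in 4 groups, 2 held a mouse far from the others, where chance gives about 1 in 20. *Mt1* in saline-infused IKKβ-/- mouse X2406 was 358.5, below the other 3 mice, and this mouse was also the lowest of its group for *Mt2*, *Sgk1*, *Errfi1* and *Tsc22d3*. *Lcn2* in saline-infused IKKβ+/+ mouse X2376 was 14.2, above the other 4 mice.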

How the results depend on the processing

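No paired analysis was possible because the mouse numbers differ between all groups. Over the alternatives, 990 of 1070 values of a gene in a comparison kept their direction and their side of the threshold, 26 lost a call, 25 gained one and 29 changed sign, the last all in results that were not called. The 7 calls with Ang II in IKKβ+/+ mice were 6 to 8 over the alternatives that kept all mice and 5 to 7 without single mice, the lowest without X2350, X2358 or X2370, and edgeR lost *Fkbp5* without mouse X2359 (0.92, adjusted p = 0.142). With Ang II in IKKβ-/- mice, 1 of the 2 calls was left at an adjusted p under 0.05 and with array quality weights, and 1 to 2 without single mice. The difference of the effects gained 2 calls with DESeq2, also without mouse X2359, and 1 with array quality weights, and held 0 to 1 with limma without single mice. It has no value with only the compared groups in the fit, since it needs all 4. Between genotypes with saline, the 2 calls became 1 with a pseudocount of 4, at an adjusted p under 0.05 and with edgeR, 4 with array quality weights, and 0 to 2 without single mice. With Ang II, DESeq2 called 3, also without mouse X2359, and limma 0 to 3 without single mice.

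Some signs near 0 turned. *Tsc22d3* in IKKβ-/- mice became 0.010 with edgeR and 0.0032 with DESeq2, and *Mt1* between genotypes with Ang II became 0.24 with array quality weights. Without mouse X2359, edgeR gave 0.0046 for the difference of the effects on *Fkbp5*, and edgeR and DESeq2 gave 0.14 and 0.14 for *Tsc22d3* and 0.063 and 0.056 for *Zbtb16* between genotypes with Ang II. Without single mice in limma, the IKKβ-/- response ranged from -0.47 to 0.0073 for *Tsc22d3*, from -0.34 to 0.45 for *Zbtb16* and from -0.53 to 0.13 for *Errfi1*, and the difference of the effects on *Fkbp5* from -0.46 to 0.044. Between genotypes with Ang II the range was -0.43 to 0.048 for *Tsc22d3*, -0.60 to 0.16 for *Zbtb16*, -0.40 to 0.13 for *Mt1* and -0.14 to 0.47 for *Lcn2*. The cause was not tested.

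The counts over all genes moved more. Over the alternatives that kept all mice they were 638 to 2074 with Ang II in IKKβ+/+ mice, 295 to 1164 in IKKβ-/- mice, 0 to 279 for the difference, and 136 to 1902 and 0 to 521 between genotypes with saline and with Ang II. Without single mice, the count tests without X2359 included, they were 428 to 1915, 435 to 1082, 0 to 374, 24 to 1726 and 0 to 553 in the same order, and the lowest saline count was without mouse X2406. Depth limits *Lcn2* most, at 9 reads in saline-infused IKKβ-/- mice.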
